A study of Mus musculus with 6 samples.

Results

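The genes described here are 10 genes of bone mineralization and of the non-collagen bone matrix: Ibsp, Spp1, Dmp1, Sparc, Mgp, Alpl, Enpp1, Phospho1, Phex and Slc20a1. They were chosen by name, and all 10 were found among the 15063 genes listed. Expression was measured by RNA-seq in mesenchymal stem cells (MSCs), the stromal progenitors of bone, cartilage and fat cells, grown from marrow taken at 3 weeks of age. The mutant animals carried a conditional Mapk7 knockout (CKO) and gave 3 libraries, all at passage 5. Wild-type (WT) animals gave 3 libraries, of which libraries 1 and 3 were at passage 5 and library 2 was at passage 7. Mapk7 encodes the MAP kinase ERK5, and the series title sets it above Lrp6 and β-catenin in the balance of bone and fat. The labels name neither the Cre driver, the floxed allele nor any pooling of animals, and cells were grown in α-MEM with serum, with no differentiation medium named. Levels are RPKM, reads scaled to gene length and library total.

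Bone matrix hardens when calcium phosphate crystals grow in a collagen scaffold. Acidic matrix proteins of the SIBLING family (bone sialoprotein, osteopontin and dentin matrix protein 1 among them) bind the crystals and cell surface integrins, and matrix Gla protein holds calcification back. Crystal growth also depends on the balance of phosphate, which builds the mineral, and pyrophosphate, which blocks it, and a small group of enzymes and transporters sets that balance in osteoblasts.

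Each library held 17351907 to 20689481 counted reads. Mapk7 was at 5.59, 3.84 and 5.45 RPKM in CKO libraries 1 to 3, against 7.12, 6.76 and 9.07 RPKM in WT libraries 1 to 3, so the groups did not overlap and the transcript was not absent. Its log2 difference was −0.54 (SE 0.23) and did not pass (limma adjusted p = 0.505). WT library 2, the passage 7 library, stood apart. Across genes it correlated with each other library at a Pearson r of 0.795 to 0.920, where the 10 remaining pairs gave 0.891 to 0.972. The closest pair, at 0.972, was of different genotype, WT library 1 with CKO library 1. WT libraries 1 and 3 gave 0.959 and CKO libraries 1 and 2 gave 0.939. The 10 cell cycle markers summed to 9.53 RPKM in WT library 2 and to between 127 and 314 RPKM in the other 5 libraries. WT libraries 1 and 2 carry the same animal label, yet Ddx3y, a Y-linked gene picked out for these values, measured 0.0357 RPKM in the first and 19.1 RPKM in the second. Every library but WT library 1 held Ddx3y at 6.45 to 19.1 RPKM, so WT library 1 stood apart from both groups in this gene. Whether its animal differed in sex from the others was not tested. Of 10 stromal markers, Col1a1 was at 1126 to 2959 RPKM in CKO and 2043 to 2635 RPKM in WT. In 3 of the 10 the CKO values lay below the WT values without overlap, where 9.65% of all listed genes did. Pdgfra was at 1.01 to 10.9 RPKM in CKO and 14.1 to 32.3 RPKM in WT (limma adjusted p = 0.450). Pdgfrb was at 26.1 to 48.5 RPKM in CKO and 60.2 to 85.8 RPKM in WT (limma adjusted p = 0.350). Cxcl12 was at 28.1 to 44.8 RPKM in CKO and 48.2 to 138 RPKM in WT (limma adjusted p = 0.376). By mean, Thy1 and Prrx1 of the same list were higher in CKO, at 179 against 136 RPKM in WT and 37.9 against 34.2 RPKM in WT. The 5 endothelial markers summed to at most 2.51 RPKM in CKO and 2.55 RPKM in WT. Beyond the passage of WT library 2, nothing in the labels states that the 3 libraries of a genotype were separate cultures. Every p-value therefore reflects library-to-library spread, which may be technical and in WT also holds a difference in passage.

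Ibsp, the bone sialoprotein gene, was almost absent in CKO and expressed in WT, and it had the lowest p of the 8 genes tested, having entered the test through WT alone. The mean of Dmp1, Spp1, Sparc, Mgp, Alpl, Enpp1, Phospho1 and Phex was also lower in CKO than in WT, and that of Slc20a1, a phosphate importer gene, was higher. None of the differences that were tested passed over all genes, and Dmp1 and Phex were not tested. In Ibsp, Dmp1, Sparc and Phex the 3 CKO values lay all below the 3 WT values, in Slc20a1 all above, and in the other 5 genes the groups overlapped. Among all listed genes 17.2% had groups that did not overlap, 9.65% lower and 7.57% higher in CKO. Among all tested genes it was 16.7%, 9.18% lower and 7.51% higher, and of the 8 tested genes here Ibsp and Sparc were lower and Slc20a1 higher without overlap.

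**Figure D1:**
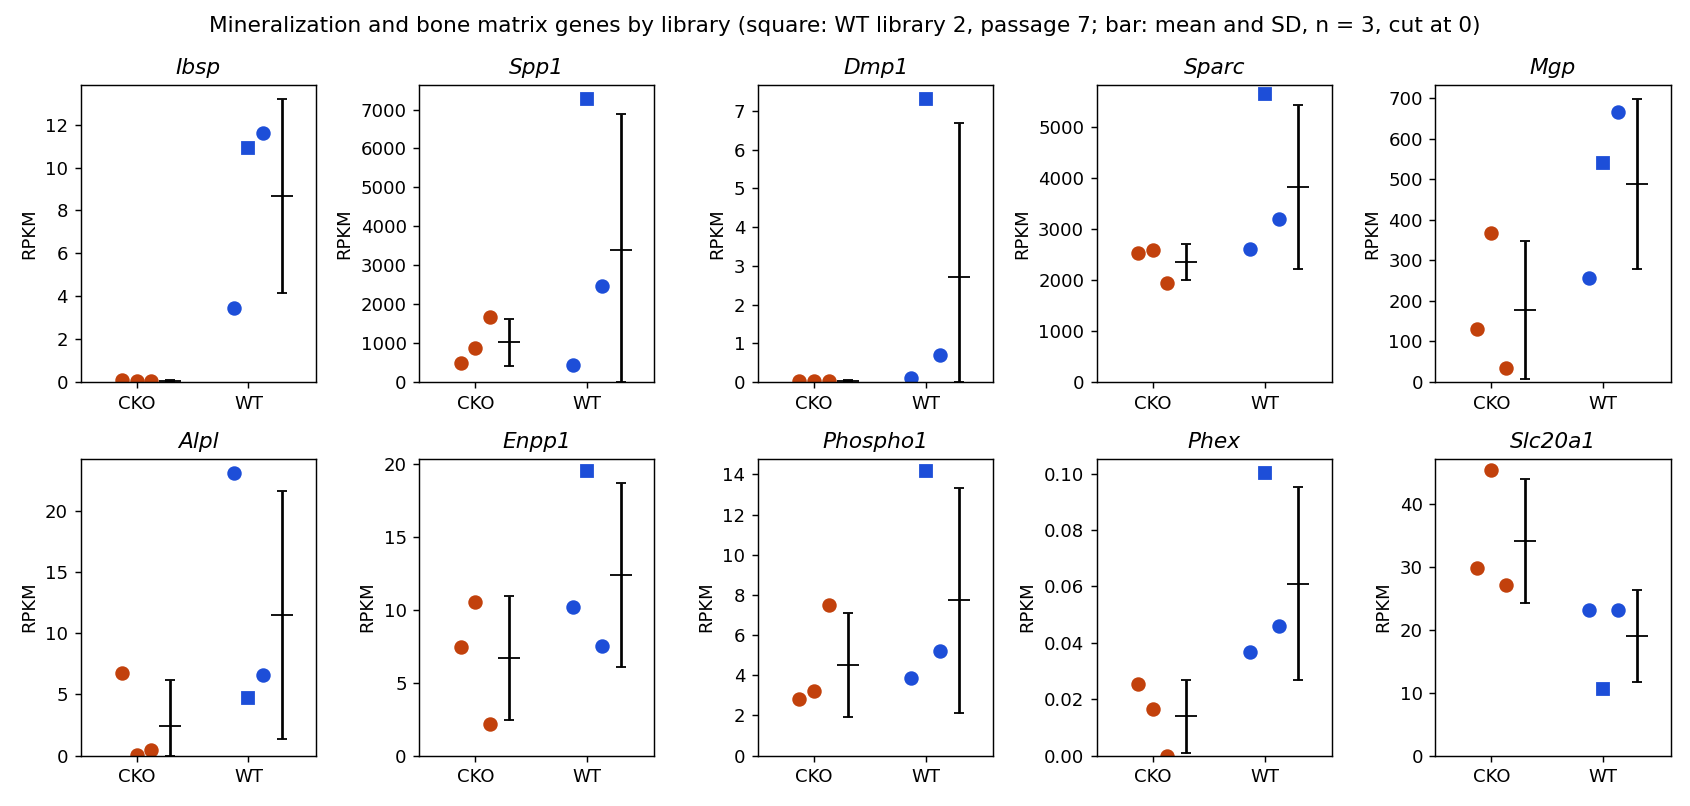
RPKM of each of the 10 genes (vertical axes, linear, one scale per gene) in the 3 CKO libraries and the 3 WT libraries, with the mean and SD beside the points (n = 3 per genotype) and WT library 2, at passage 7, as a square. Ibsp and Dmp1 lie near 0 in CKO, Slc20a1 lies higher in CKO, and the square is the highest point for Spp1, Dmp1, Sparc, Enpp1, Phospho1 and Phex.

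Of the 3 SIBLING genes, Ibsp encodes bone sialoprotein, a crystal-nucleating and integrin-binding protein of osteoblasts. It was at 0.0810, 0.0264 and 0.0288 RPKM in CKO libraries 1 to 3, against 3.45, 10.9 and 11.6 RPKM in WT libraries 1 to 3. All CKO libraries were low, and within WT the lowest was library 1. Behind these values were 3, 1 and 1 reads in CKO and 117, 442 and 394 reads in WT. Summed over libraries and scaled to library totals, the reads in CKO were 0.00519 of those in WT (95% exact binomial interval 0.00168 to 0.0121, which covers counting error only). In bulk RNA, fewer cells expressing a gene and less RNA per cell cannot be told apart.

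Genotype was tested with limma on log2(RPKM + 1), a scale that understates the change of low genes, in the 11085 genes with at least 1 RPKM in at least 3 libraries. Ibsp passed that filter through its WT libraries alone. Its log2 difference was −3.07 (SE 0.41, unadjusted p = 1.05e-04), the 9th lowest p of all tested genes, and it did not pass at an adjusted p of 0.05 (limma adjusted p = 0.117). It passed without WT library 1 (−3.55, limma adjusted p = 0.0056) and with WT libraries 1 and 2 averaged into 1 (−3.28, limma adjusted p = 0.012). Both settings take the lowest WT value, that of library 1, out of the spread. WT library 1 was the only library with almost no Ddx3y (above). The average also treats libraries 1 and 2 as 1 animal, which their Ddx3y levels (above) put in doubt. Over all alternatives the limma adjusted p of Ibsp ranged from 0.0056 to 0.474. Of all tested genes, 0.00902% passed, which is 1 gene, Galnt16, a gene of O-linked glycosylation named after its values were seen.

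Dmp1 encodes dentin matrix protein 1, which osteocytes and odontoblasts secrete. It was at 0.0341, 0.0167 and 0.0364 RPKM in CKO, against 0.112, 7.31 and 0.689 RPKM in WT libraries 1 to 3. The WT level rested on library 2, which was 65.4 times WT library 1, and the CKO values came from 2, 1 and 2 reads. Without WT library 2 the mean was 0.0291 RPKM in CKO and 0.400 RPKM in WT. Leaving out a library cannot make separate groups overlap, and the value of WT library 1 came from 6 reads. The summed reads in CKO, scaled to library totals, were 0.00967 of those in WT (5 against 511 reads, 95% exact binomial interval 0.00313 to 0.0227). That interval covers counting error only and leaves out the spread between libraries. Of the 511 WT reads, 468 came from library 2, so the ratio rests mostly on that library. Dmp1 was under the filter on low values and was not tested. Of 5 osteocyte markers only Pdpn, the podoplanin gene, was listed, at 57.9 to 182 RPKM in CKO and 69.2 to 106 RPKM in WT, and the part of osteocytes in the Dmp1 level was not tested.

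Spp1 encodes osteopontin, a matrix protein that slows crystal growth and that macrophages and osteoclasts make as well as osteoblasts. It was at 498, 877 and 1666 RPKM in CKO, against 430.3, 7269 and 2455 RPKM in WT libraries 1 to 3. The groups overlapped, since WT library 1 was the lowest of the 6. By mean RPKM, Spp1 ranked 61st of all genes in CKO and 4th in WT. Its log2 difference was −1.13 (SE 1.01, 95% interval −3.53 to 1.26, limma adjusted p = 0.725). Leaving out WT library 1 gave −2.23 and leaving out WT library 2 gave −0.19, so the size of the difference depended on which WT library was kept. The 12 macrophage markers listed summed to 692, 404 and 3325 RPKM in CKO and 1021, 772 and 2093 RPKM in WT, with Lyz2, the macrophage lysozyme gene, at 321 to 2948 RPKM in CKO and 686 to 1590 RPKM in WT. The highest Spp1 value within CKO was in library 3, which also had the highest macrophage sum, while the highest in WT was in library 2, which had the lowest macrophage sum of the WT libraries. All 12 markers were above 0 in each library. The 8 osteoclast markers listed summed to 47.9 to 95.4 RPKM in CKO and 71.5 to 103 RPKM in WT. Most of that sum was Ctsk, the cathepsin K gene, at 41.9 to 57.2 RPKM in CKO and 61.5 to 94.1 RPKM in WT without overlap (limma adjusted p = 0.502). Within CKO, Acp5, Mmp9 and Atp6v0d2, other osteoclast genes, were highest in library 3, at 10.4, 21.1 and 4.22 RPKM, the library in which Spp1 was highest. Nfatc1, another of the 8, was lowest in that library, at 4.85, 3.20 and 1.64 RPKM in CKO libraries 1 to 3. Among the 8 were also Dcstamp, an osteoclast fusion gene, at 0 in CKO libraries 1 and 2 and WT library 1 and Ocstamp, another, at 0 in WT library 1. The part of these cells in the Spp1 level was not tested.

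Ibsp, Dmp1 and Spp1 lie side by side on mouse chromosome 5, with Dspp and Mepe of the same family, by the order of protein-coding genes in the RefSeq table for GRCm38.p6. Dspp and Mepe were not among the genes listed and were not analysed here. The next gene after Spp1, Pkd2, which encodes the cation channel polycystin 2, was at 18.3, 7.70 and 17.1 RPKM in CKO and 15.0, 68.9 and 20.5 RPKM in WT, with overlapping groups and WT library 2 highest (log2 difference −0.99, SE 0.59, limma adjusted p = 0.609). The 250 bases before a RefSeq start of each of the 3 clustered genes are printed because these genes are neighbours whose levels differed in size and in their order over libraries. They are read on the + strand of GRCm38.p6, at chr5:104299037-104299286 for Ibsp, chr5:104202367-104202616 for Dmp1 and chr5:104434861-104435110 for Spp1. Capitals mark matches on either strand to the core motifs TGTGGT of RUNX factors, CTTTGA and CTTTGT of TCF/LEF factors, which carry β-catenin, and CACCC of KLF factors, whose genes Klf2 and Klf4 respond to ERK5.
Ibsp: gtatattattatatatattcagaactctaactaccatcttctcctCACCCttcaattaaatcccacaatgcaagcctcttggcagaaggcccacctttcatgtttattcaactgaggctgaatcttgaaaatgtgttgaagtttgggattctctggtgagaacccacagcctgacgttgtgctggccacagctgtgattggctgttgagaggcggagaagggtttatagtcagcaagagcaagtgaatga
Dmp1: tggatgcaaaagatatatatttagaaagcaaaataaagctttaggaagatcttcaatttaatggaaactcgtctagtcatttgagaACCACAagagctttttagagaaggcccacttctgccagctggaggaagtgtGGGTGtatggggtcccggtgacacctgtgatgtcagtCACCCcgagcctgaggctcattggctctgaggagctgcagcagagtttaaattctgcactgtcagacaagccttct
Spp1: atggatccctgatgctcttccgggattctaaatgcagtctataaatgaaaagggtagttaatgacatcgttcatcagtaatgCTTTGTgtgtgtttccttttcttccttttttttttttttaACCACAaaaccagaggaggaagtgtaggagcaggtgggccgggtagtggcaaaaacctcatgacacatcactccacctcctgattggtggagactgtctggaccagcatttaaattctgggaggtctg
The Ibsp window holds 1 match, to the KLF motif, 205 to 201 bases before the start. The Dmp1 window holds a RUNX match at 164 to 159 bases and KLF matches at 113 to 109 and 76 to 72 bases before the start. The Spp1 window holds a TCF/LEF match, CTTTGT, at 168 to 163 bases and a RUNX match at 128 to 123 bases before the start. RefSeq windows were found for 9 of the 10 genes, 13 windows in all. TGTGGT was in 4 of these 13 and in 14.0% of all 32851 windows of the same length, CTTTGA in 2 and 13.8%, CTTTGT in 5 and 16.5%, CACCC in 7 and 52.0%, and the MEF2 motif in 0 and 2.92%. None of these motifs overlapped another in the 3 windows printed, and a match describes letters, not a bound site.

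Sparc and Mgp encode other matrix proteins, and their mean levels were also lower in CKO. Sparc encodes osteonectin, which binds collagen and calcium, and it was at 2518, 2577 and 1946 RPKM in CKO, against 2614, 5638 and 3195 RPKM in WT libraries 1 to 3. The groups did not overlap, but CKO library 2 and WT library 1 lay close together. It ranked 7th of all genes by mean RPKM in CKO and 3rd in WT. The log2 difference was −0.63 (SE 0.44, 95% interval −1.65 to 0.39, limma adjusted p = 0.656), and −0.31 without WT library 2.

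Mgp encodes matrix Gla protein, a vitamin K-dependent inhibitor of calcification in cartilage and vessel wall. It was at 129.7, 368 and 35.3 RPKM in CKO, against 256, 542 and 667 RPKM in WT libraries 1 to 3. CKO library 2 lay above WT library 1, so the groups overlapped, and CKO library 3 was the lowest of the 6. The log2 difference was −1.91 (SE 0.83, unadjusted p = 0.0534, limma adjusted p = 0.523), and leaving out CKO library 3 gave −1.05 and CKO library 2 gave −2.72.

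Alpl and Enpp1 act on pyrophosphate in opposite ways, and both had lower means in CKO. Alpl encodes tissue-nonspecific alkaline phosphatase, which breaks pyrophosphate down. It was at 6.75, 0.0838 and 0.472 RPKM in CKO, against 23.1, 4.74 and 6.59 RPKM in WT libraries 1 to 3. CKO libraries 2 and 3 were far below all others, with 6 and 31 reads, while CKO library 1 lay above WT libraries 2 and 3. The log2 difference was −2.14 (SE 0.84, 95% interval −4.13 to −0.15, unadjusted p = 0.0387, limma adjusted p = 0.485), and leaving out WT library 1 gave −1.51 and CKO library 1 gave −3.01.

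Enpp1 encodes the enzyme that makes pyrophosphate from ATP. It was at 7.44, 10.6 and 2.15 RPKM in CKO, against 10.2, 19.5 and 7.499 RPKM in WT libraries 1 to 3. The groups overlapped, with CKO library 3 lowest and WT library 2 highest. The log2 difference was −0.89 (SE 0.54, limma adjusted p = 0.621), and −0.34 without CKO library 3. The log2 ratio of Alpl to Enpp1 was −0.14, −6.98 and −2.19 in CKO libraries 1 to 3 and 1.18, −2.04 and −0.19 in WT libraries 1 to 3. It averaged −3.10 ± 3.51 in CKO and −0.35 ± 1.62 in WT (SD, n = 3 each), so the groups overlapped and the spread within CKO was larger than the distance between the means.

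Phospho1 encodes the matrix vesicle phosphatase that frees phosphate from phosphocholine and phosphoethanolamine. It was at 2.82, 3.22 and 7.52 RPKM in CKO, against 3.86, 14.2 and 5.19 RPKM in WT libraries 1 to 3. CKO library 3 lay above WT libraries 1 and 3, and the high WT mean came from library 2. The log2 difference was −0.58 (SE 0.49, limma adjusted p = 0.713), and −0.09 without WT library 2.

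Phex and Slc20a1 concern phosphate supply. Phex encodes a membrane peptidase of osteoblasts and osteocytes whose loss causes phosphate wasting, and it was at 0.0253, 0.0165 and 0 RPKM in CKO, against 0.0368, 0.1003 and 0.0460 RPKM in WT libraries 1 to 3. The values did not overlap, but they rested on 3, 2 and 0 reads in CKO and 4, 13 and 5 reads in WT. A count of 0 allows up to 3 reads, which for Phex is 0.0232 to 0.0276 RPKM over the 6 libraries. The summed reads in CKO, scaled to library totals, were 0.225 of those in WT (95% exact binomial interval 0.0665 to 0.608, counting error only). Phex was under the filter on low values and not tested.

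Slc20a1 encodes the sodium-phosphate importer PiT-1 and was the 1 gene of the 10 with a higher mean in CKO. It was at 29.8, 45.4 and 27.2 RPKM in CKO, against 23.2, 10.6 and 23.2 RPKM in WT libraries 1 to 3. Each CKO library was above each WT library, with CKO library 2 highest and WT library 2 lowest. The means were 34.1 ± 9.88 RPKM in CKO and 19.0 ± 7.26 RPKM in WT (SD, n = 3 each). The log2 difference was 0.85 (SE 0.35, 95% interval 0.03 to 1.68, unadjusted p = 0.0448, limma adjusted p = 0.5), and 0.50 without WT library 2.

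None of the 8 tested genes passed over all genes, and Ibsp, Alpl and Slc20a1 had an unadjusted p under 0.05 in limma, where 9.74% of all tested genes did. The median log2 difference of the 8 tested genes was −1.01, and that of all tested genes was 0.03. Of the 8, 7 lay below 0, against 46.3% of all tested genes. These 8 include Ibsp, which had to be higher in WT to be tested. No single value of 3 libraries against 3 can reach an exact permutation p under 0.1.

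**Figure D2:**
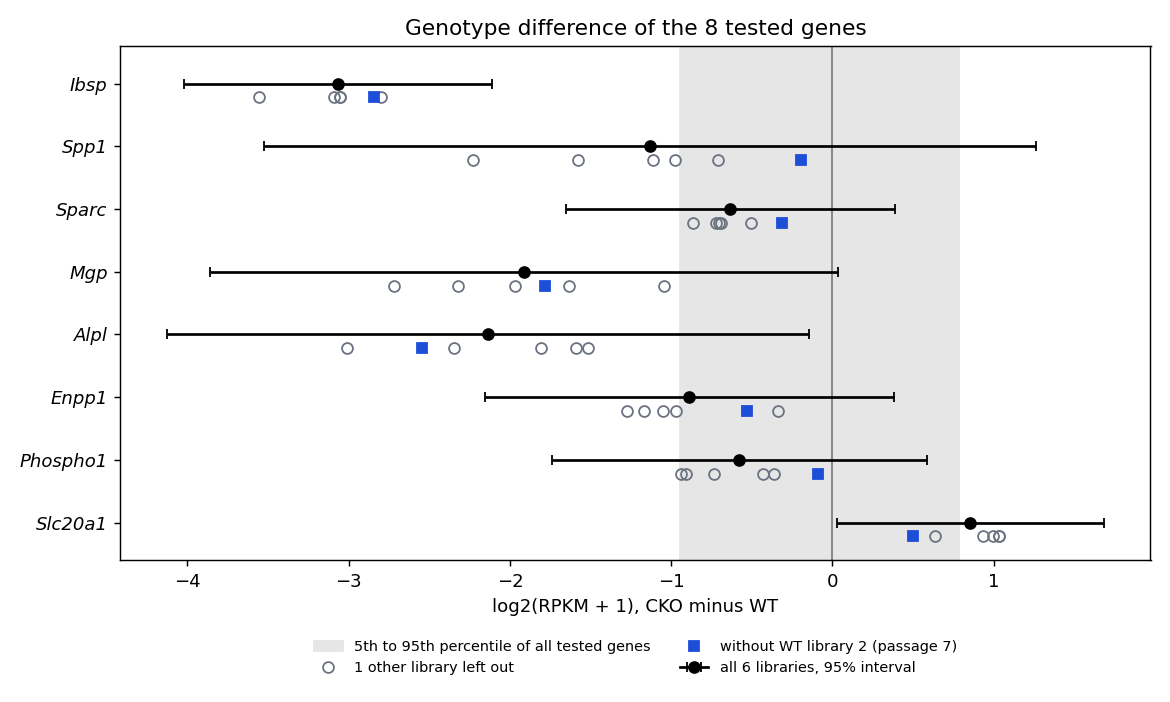
Log2 difference, CKO minus WT, on the log2(RPKM + 1) scale (horizontal axis) for the 8 tested genes, with the 95% interval of the limma fit, the value with each library left out and the range from the 5th to the 95th percentile of all tested genes (−0.94 to 0.78) shaded. Ibsp lies at −3.07 with an interval of −4.02 to −2.11, and leaving out WT library 2 moves Spp1 to −0.19 and Phospho1 to −0.09.

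The genes did not share 1 order over the libraries. Spp1, Sparc, Enpp1, Phospho1, Dmp1 and Phex were highest in WT library 2, the passage 7 library, which held the highest value of 21.3% of all tested genes. Ibsp and Mgp were highest in WT library 3, Alpl in WT library 1 and Slc20a1 in CKO library 2. Within CKO, Alpl was highest in library 1, Mgp and Enpp1 in library 2, and Spp1 and Phospho1 in library 3. On the log2(RPKM + 1) scale CKO library 3 deviated from the gene mean by −2.69 for Mgp and by 0.43 for Phospho1.

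**Figure D3:**
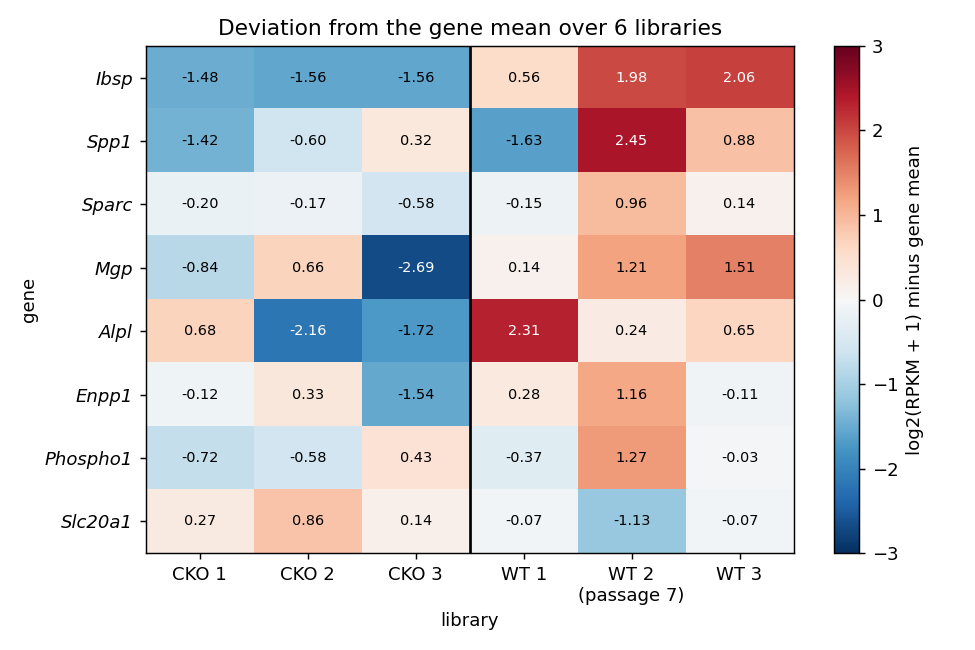
Deviation of log2(RPKM + 1) from each gene's mean over the 6 libraries, for the 8 tested genes (rows) in the 3 CKO and 3 WT libraries (columns), with red above and blue below the mean. Ibsp is below its mean in all 3 CKO libraries and above it in all 3 WT libraries, and Spp1 spans −1.63 in WT library 1 to 2.45 in WT library 2.

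Likeness of pattern was measured as the root mean square distance of log2(RPKM + 1), centred on the gene mean, over the 6 libraries, among all tested genes. The nearest to Ibsp were Scara5, a ferritin receptor gene (distance 0.40), and Htra3, a serine protease gene (0.47). Those nearest to Spp1 were Angptl4, an inhibitor of lipoprotein lipase (0.355), and Enpp5 (0.475), a relative of Enpp1. The gene nearest to Mgp was Ank, which encodes a pyrophosphate exporter (0.32), followed by Klhdc8a (0.43), and those nearest to Enpp1 were P3h4 (0.25) and Chpf (0.29). Alpl lay nearest to Slc1a3 and Col6a2 (0.50 and 0.51), Phospho1 to Col4a5 and Lrrn4cl (0.14 and 0.17), Sparc to Tmub1 and Pgghg (0.04 and 0.09) and Slc20a1 to Snrpf and Gtf2f2 (0.05 and 0.07). With 6 libraries, 1 that stands apart can set such distances, and none of the 16 was itself among the 10 genes.

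Markers of cartilage cells were lower in sum in CKO, as Ibsp was, though none passed the test. The 9 chondrocyte markers listed summed to 146, 96.7 and 3.90 RPKM in CKO and 686, 4419 and 1177 RPKM in WT libraries 1 to 3, so the groups did not overlap, and 6 of the 9 did not overlap singly, where 9.65% of all listed genes were lower without overlap. The 7 tested had a limma adjusted p of 0.117 to 0.644. Cnmd, the chondromodulin gene, was at 0 in CKO library 3, and Col9a1, a cartilage collagen gene, was at 0 in CKO libraries 2 and 3. The 3 markers of hypertrophic chondrocytes, which also make bone sialoprotein, summed to 2.81 to 55.9 RPKM in CKO and 105 to 484 RPKM in WT. Most of that sum was Mmp13, the collagenase 3 gene, at 0.348 to 55.3 RPKM in CKO and 102 to 482 RPKM in WT, which did not overlap. Col10a1, the collagen X gene, was at 2.51 ± 2.03 RPKM in CKO and 2.41 ± 0.591 RPKM in WT (SD, n = 3 each), and overlapped. Mmp13, Col10a1, Cnmd and Col9a1 were named after their values were seen. The part of such cells in the Ibsp difference was not tested.

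Transcription factor genes of the osteoblast lineage did not all follow Ibsp. Runx2 was at 9.86, 4.66 and 4.46 RPKM in CKO and 9.97, 4.56 and 5.93 RPKM in WT libraries 1 to 3, and Sp7, under the filter, was at 0.564, 0 and 0 RPKM in CKO and 4.10, 0.251 and 0.738 RPKM in WT. Runx2, Sp7, Dlx5 and Alpl were each highest within their group in CKO library 1 and WT library 1, the libraries in which Spp1 was lowest. Not all 7 factors were so, as Atf4 was highest in library 3 of each group and Mef2c, under the filter, in library 2 within WT. In 3 of the 7 the groups did not overlap, where 17.2% of all listed genes did not. Mef2c was lower and Atf4 higher in CKO among these. Of the 7 listed, 4 were tested and none passed. Dlx5 was at 2.59 ± 3.22 RPKM in CKO and 7.09 ± 3.06 RPKM in WT (SD, n = 3 each, unadjusted p = 0.046, limma adjusted p = 0.502). Atf4 was at 346 ± 14.1 RPKM in CKO and 275 ± 11.1 RPKM in WT (limma adjusted p = 0.690).

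**Figure D4:**
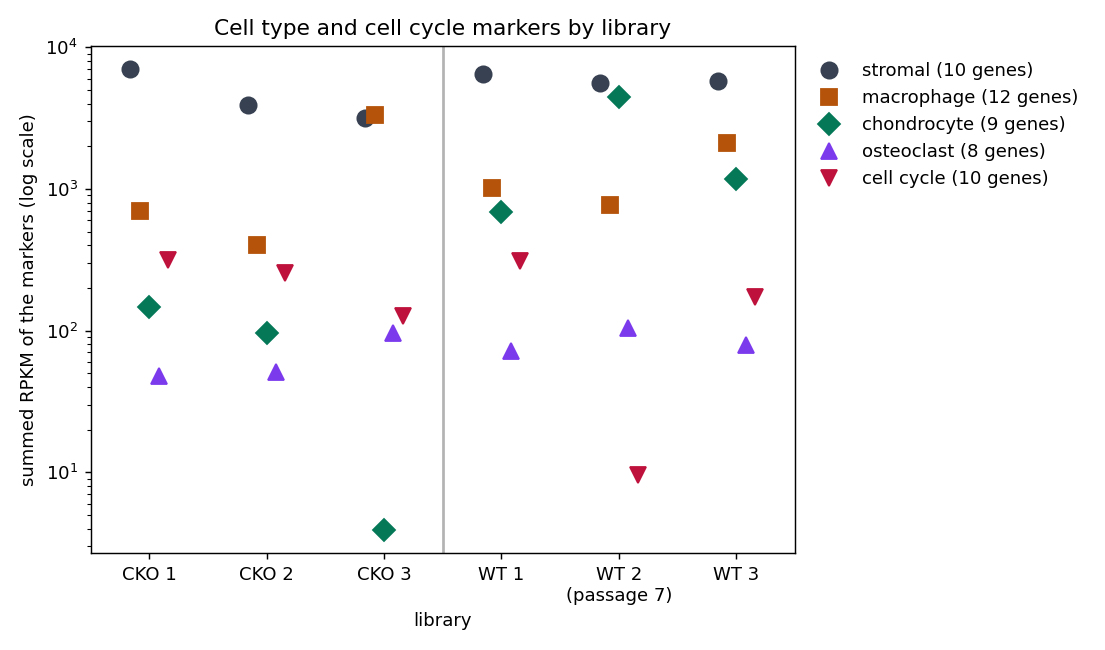
Summed RPKM of marker genes (vertical axis, log scale) of stromal cells, macrophages, chondrocytes, osteoclasts and the cell cycle in the 3 CKO and 3 WT libraries. The chondrocyte sum is 3.90 to 146 RPKM in CKO and 686 to 4419 RPKM in WT, the macrophage sum overlaps, and the cell cycle sum is lowest at 9.53 RPKM in WT library 2.

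Other genes that act with these 10 were taken from lists of 62 genes, of which 51 were listed and 43 tested. None of the 43 passed over all genes, 18 lay above and 25 below 0, and 3 of the higher and 6 of the lower had an unadjusted p under 0.05, where 3.36% and 6.39% of all tested genes did. Of those 6 lower genes, Ucma and Entpd2 were tested only through their WT libraries, so the count does not support a direction. The median log2 difference was −0.18.

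Among 8 tested bone matrix proteins 7 lay below 0 (median −0.45). Omd, osteomodulin, a keratan sulphate proteoglycan of mineralized matrix, was at 4.12, 2.18 and 0.442 RPKM in CKO, against 10.9, 330.3 and 54.2 RPKM in WT (log2 difference −4.39, SE 1.14, limma adjusted p = 0.303). Thbs1, thrombospondin 1, was at 2099.6 ± 676 RPKM in CKO and 5176 ± 2526 RPKM in WT (limma adjusted p = 0.486), and Dcn, the decorin gene, at 77.9 ± 82.0 RPKM in CKO and 452 ± 477 RPKM in WT (limma adjusted p = 0.539). Omd and Thbs1 did not overlap between groups, and WT library 2 was highest for Omd, Thbs1 and Dcn. In the SPARC family 3 genes were tested, Smoc1, Smoc2 and Fstl1, with limma adjusted p of 0.783, 0.784 and 0.657.

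Of the 6 Gla proteins and enzymes of the vitamin K cycle, which makes Mgp functional, 5 lay below 0 (median −1.06). Ucma, a Gla-rich protein gene of cartilage, was at 0.358, 0.117 and 0 RPKM in CKO, against 1.89, 454 and 33.9 RPKM in WT, and it passed the filter through WT alone (limma adjusted p = 0.378). Gas6, a Gla protein ligand of TAM receptors, was at 210.3, 149 and 35.0 RPKM in CKO, against 404, 835 and 592 RPKM in WT (log2 difference −2.49, SE 0.67, limma adjusted p = 0.314). Pros1, the protein S gene, was at 22.7 ± 11.2 RPKM in CKO and 42.1 ± 11.4 RPKM in WT (limma adjusted p = 0.537). Ucma, Gas6, Pros1 and Mgp were all lower by mean in CKO, and Mgp alone of these overlapped between groups.

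The 15 tested genes of phosphate and pyrophosphate handling were divided, with 8 above and 7 below 0 (median 0.02). Ppa1, the cytosolic pyrophosphatase gene, was at 68.8, 107 and 64.2 RPKM in CKO, against 60.1, 25.1 and 40.4 RPKM in WT (log2 difference 0.96, SE 0.37, limma adjusted p = 0.454). Entpd2, an ectonucleotidase gene, was at 0.499 ± 0.405 RPKM in CKO and 3.04 ± 2.56 RPKM in WT (limma adjusted p = 0.424), and passed the filter through WT alone. Fam20b, a kinase gene for proteoglycan linkers, was at 14.8 ± 1.77 RPKM in CKO and 24.5 ± 8.54 RPKM in WT (limma adjusted p = 0.502). Ank was at 13.7, 49.6 and 5.83 RPKM in CKO and 23.5, 83.8 and 83.3 RPKM in WT, with overlapping groups (limma adjusted p = 0.554). Slc20a2, which encodes PiT-2, the relative of PiT-1, was named after its values were seen. It was at 12.1 ± 3.01 RPKM in CKO and 8.91 ± 1.07 RPKM in WT (SD, n = 3 each) and overlapped between groups (limma adjusted p = 0.623).

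Integrin genes of receptors for matrix proteins such as bone sialoprotein and osteopontin, with Cd44, a receptor of osteopontin and hyaluronan, lay above 0 in 6 of 8 (median 0.51). Itga5, the α5 integrin subunit of the fibronectin receptor, was at 159.8, 246 and 197 RPKM in CKO, against 104, 19.0 and 58.6 RPKM in WT (log2 difference 1.99, SE 0.58, limma adjusted p = 0.334). Cd44 was at 70.1, 126 and 67.1 RPKM in CKO, against 55.8, 15.6 and 50.5 RPKM in WT (limma adjusted p = 0.507), and Itgb5 was at 86.5 ± 16.3 RPKM in CKO and 148 ± 62.4 RPKM in WT (limma adjusted p = 0.584). Itga5 and Cd44 did not overlap between groups and were lowest in WT library 2. Itgb1, the β1 integrin subunit, also did not overlap, at 403 to 596 RPKM in CKO and 343 to 380.4 RPKM in WT (limma adjusted p = 0.607). Among all tested genes, 7.51% were higher in CKO without overlap. Of the FGF23 and hormone axis, Galnt3, Fgfr1 and Vdr were tested, with overlapping groups and limma adjusted p of 0.9899, 0.725 and 0.911.

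**Figure D5:**
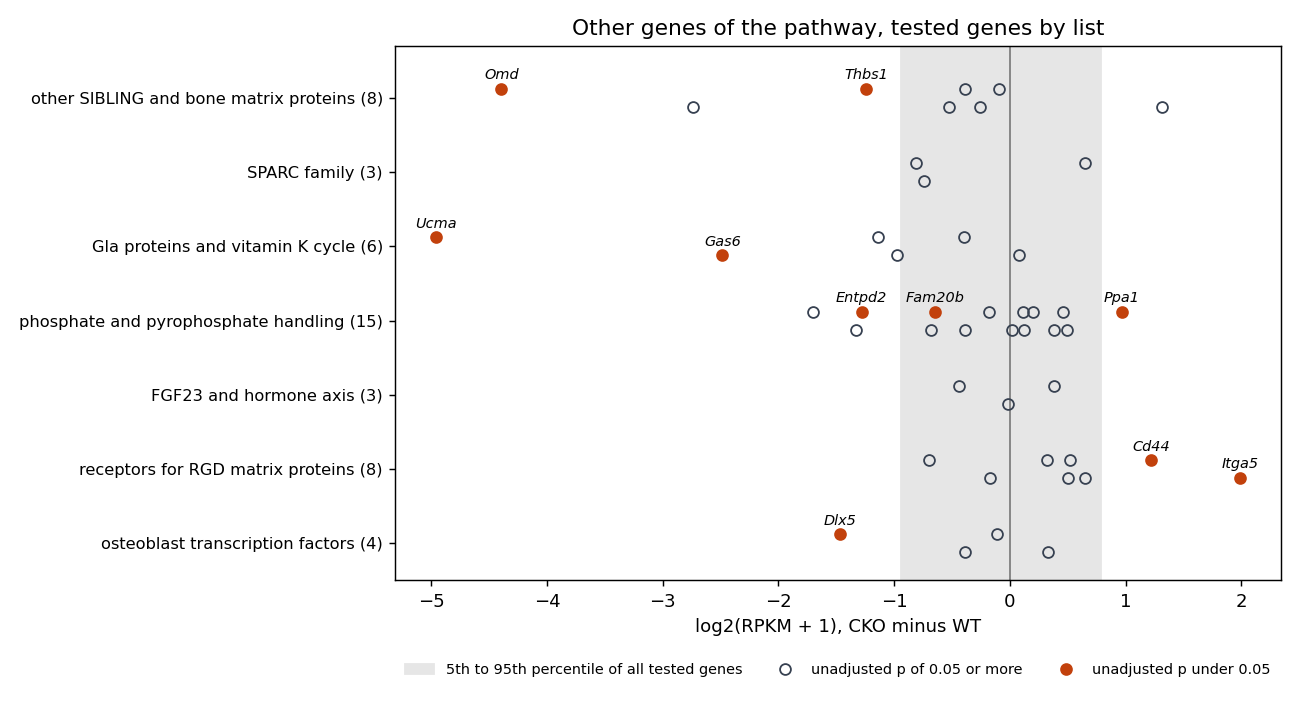
Log2 difference, CKO minus WT, on the log2(RPKM + 1) scale (horizontal axis) for the tested genes of each list (rows, with the number tested), filled where the unadjusted limma p is under 0.05, with the 5th to 95th percentile of all tested genes shaded. Omd, Ucma and Gas6 lie at −4.39, −4.96 and −2.49, and Itga5 at 1.99.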

How the data were processed

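The authors' deposited tables hold expression values that their headers do not tie to a unit, and these behaved as RPKM. Assuming a whole-number length for each gene and a whole-number total for each library turned the values of 15062 of 15063 genes into whole reads, to within 0.01 read or a relative error of 1e-07. The lengths are the smallest that do so, and the true reads of a gene can be a multiple. Per the submitters' processing notes, the genome build was mm9. Libraries came from a stranded mRNA kit, per the labels' protocols. The aligner, the counter, the annotation and the use of strand in counting are not given in the sources read. Reads of overlapping genes may be shared. Groups come from the sample titles. WT library 3 has another animal number in its description than in its file header. Promoter windows and gene order come from RefSeq, GRCm38.p6, another build, and protein sequences were not used here.

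Genotype was fitted with limma 3.58.1 in R 4.3.3 on log2(RPKM + 1), with trend and robust moderation, two-sided, adjusted by the Benjamini-Hochberg method over 11085 genes with at least 1 RPKM in at least 3 libraries. The fit was tested on simulated data in which all genes had a common spread, smaller than that of the typical gene here. That test therefore does not show how often the fit errs on these libraries. The genes and lists were chosen with earlier results of these data known. Beyond the 10 genes the text names Mapk7, up to 3 genes per list with the lowest p, the 2 genes nearest in pattern to each tested gene, neighbours on the chromosome and 4 lineage markers (Runx2, Sp7, Lyz2 and Col1a1), and says where a further gene was picked after its values were seen. Slc20a2, Ank, Itgb1, Pdgfra, Pdgfrb, Cxcl12, Ctsk, Acp5, Mmp9, Atp6v0d2, Dcstamp, Ocstamp and Pdpn were also picked then, as was Ddx3y. So were Nfatc1, Thy1, Prrx1 and Mef2c. Alternatives were other filters, normalizations, pseudocount and moderation, limma-voom on recovered reads, leaving out or averaging libraries, and the replicate number as a block. RPKM rescaled to equal sums over the listed genes was added after seeing the data. With libraries left out, the same 11085 genes were kept. A result that the naming rule would give is not reported here.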

Additional observations from a re-analysis of the deposited data

How the results depend on the processing

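Across 127 values of the 8 tested genes recomputed under the alternatives, all 127 kept their sign, and 2 passed the threshold, both of Ibsp (above). Ibsp was not tested with the filter at 5 RPKM. Of the 10 genes, 1 passed with WT libraries 1 and 2 averaged and 0 to 1 with 1 library left out. The average treats WT libraries 1 and 2 as 1 animal, which their Ddx3y levels put in doubt. Over all genes, the 1 call became 4 with the filter at 5 RPKM, 2 with median centring, 2 with quantile normalization, 43 with WT libraries 1 and 2 averaged, 5 at an adjusted p of 0.1, and 0 to 44 with 1 library left out. It was 0 in limma without a filter (1399 genes at an unadjusted p under 0.05), with a pseudocount of 0.1 (1059), with voom on recovered reads (1000) and with RPKM rescaled to equal sums (1110). It was also 0 with the replicate number as a block (1123), where 0 of the 10 genes passed. Whether the numbers pair the libraries is not known. The deviations of same-numbered libraries correlated at 0.198, 0.0145 and −0.0192, and those of other pairs at −0.230 to 0.206. With 3 libraries per group these values cannot decide it. With the block the SE of Alpl fell to 0.25 from 0.84 and that of Enpp1 to 0.26 from 0.54. Those of Sparc and Slc20a1 rose, to 0.58 from 0.44 and to 0.41 from 0.35. Of the libraries left out, WT library 1 gave 44 calls and CKO library 1 gave 19, and WT library 2, WT library 3 and CKO library 3 gave 0 (689, 718 and 816 genes at an unadjusted p under 0.05). Of the 10 genes, the count whose groups did not overlap was 5 to 7 with 1 library left out, 7 with WT libraries 1 and 2 averaged and 5 with equal sums. Leaving out or averaging libraries can only keep or raise this count. The share of all genes without overlap was not computed under these settings, so a higher count cannot be read as a stronger result. Rescaling to equal sums moved the all-gene median to −0.06 from 0.03 (log2). With at most 3 reads in any CKO library, the CKO levels of Ibsp, Dmp1 and Phex are limited by counting.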
